A study of Rattus norvegicus with 16 samples.

Results

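The 10 genes described here are commonly used to mark astrocytes or to follow the filaments of astrocytes and neural progenitors. They are Gfap, Vim and Nes, which encode intermediate filament proteins, Slc1a3 and Slc1a2, which encode glutamate transporters, Glul, Aldoc and S100b, and the membrane channel genes Aqp4 and Gja1. They were chosen by gene symbol in the platform annotation, which gives them 19 of the 15866 probe sets tested and makes them 10 of the 10411 named genes. Where a gene had several probe sets, the one that averaged highest over the 16 arrays stands for it.

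The RNA came from rat hippocampal slices kept in organotypic culture, in which tissue survives outside the animal with its layers and cell types. The CA1 and CA3 fields were sampled at 4 times labelled T0, T30m, T3h and T12h, taken to be a start and points 30 min, 3 h and 12 h later, with 2 biological replicates each, which gives 8 groups and 16 arrays. All groups share the culture, and the series title names oxidative stress, but the agent, its dose, whether T0 was before exposure, and the strain and age of the rats were not stated in the sources at hand. No group of untreated slices kept for the same times was analysed here, so time after exposure and time alone cannot be told apart.

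Astrocytes carry a cytoskeleton of GFAP and vimentin, and both genes are known to rise when astrocytes become reactive after injury. Nestin is the filament protein of dividing neural progenitors, and reactive astrocytes can make it again. Astrocytes also clear glutamate from synapses through the transporters GLAST (Slc1a3) and GLT-1 (Slc1a2), turn it into glutamine with glutamine synthetase (Glul), pass water through aquaporin-4 (Aqp4) and couple to each other through connexin 43 (Gja1). In bulk tissue, fewer cells of a type and less RNA per cell cannot be told apart.

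Nes is the gene whose time course passed the test, and the sequence just before its annotated start is shown here with those of the other 2 filament genes, Gfap and Vim, for comparison. Each is the 250 bases before the start in RefSeq on the GRCr8 build, written 5′ to 3′ along the strand of the gene, with matches to the searched motifs in capitals. Gfap lies on the minus strand, and its window is chr10:88361662-88361911. The Vim window is chr17:81577011-81577260 and the Nes window is chr2:175736338-175736587, both on the plus strand.
Gfap: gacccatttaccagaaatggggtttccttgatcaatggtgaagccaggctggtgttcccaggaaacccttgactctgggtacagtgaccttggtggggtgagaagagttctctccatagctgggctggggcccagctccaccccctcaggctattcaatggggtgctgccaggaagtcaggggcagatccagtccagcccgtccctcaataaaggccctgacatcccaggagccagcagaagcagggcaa
Vim: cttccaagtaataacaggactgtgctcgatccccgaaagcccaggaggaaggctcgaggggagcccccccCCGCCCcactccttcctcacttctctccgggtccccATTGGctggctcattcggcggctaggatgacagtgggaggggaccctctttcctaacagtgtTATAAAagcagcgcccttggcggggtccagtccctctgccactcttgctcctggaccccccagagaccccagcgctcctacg
Nes: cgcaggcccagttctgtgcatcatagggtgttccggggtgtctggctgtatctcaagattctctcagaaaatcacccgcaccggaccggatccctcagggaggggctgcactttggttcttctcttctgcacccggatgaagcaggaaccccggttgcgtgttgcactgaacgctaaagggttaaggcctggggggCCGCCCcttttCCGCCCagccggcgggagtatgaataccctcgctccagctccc
The motifs searched on both strands were the TATA box TATAAA, the CCAAT box CCAAT, the GC box GGGCGG and the AP-1 site TGANTCA, and no match overlapped another. Among 33469 rat windows of the same length, 12.93% held TATAAA, 34.02% held CCAAT, 30.47% held GGGCGG and 6.34% held TGANTCA. The Vim window held 1 TATAAA at 82 bases before the start, 1 CCAAT on the other strand at 144 bases and 1 GGGCGG on the other strand at 180 bases. The Nes window held 2 GGGCGG on the other strand, at 54 and 43 bases before the start. The Gfap window held none of the 4. The bases were 57.6% G or C for Gfap, 62.4% for Vim and 60.4% for Nes. A match is a description of letters and not a site shown to be used.

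The measurements are deposited log2 values from the RMA procedure, so a difference of 1 is a doubling of signal. The array medians lay between 5.81 and 5.94, and the 2 arrays of a group correlated at 0.911 to 0.969 over all probe sets. The probe sets of 9 genes averaged above 5.92, the median of all probe set means. This is a rank and not a call of detection, and it does not show which cells the signal came from. The probe set of Slc1a2 averaged 5.53, so the array gives little on this transporter. The GAPDH control gave a 3' minus 5' signal, a readout that rises as RNA is measured less far from its 3' end, of 1.29 to 3.93 over the arrays. The mean signal of the Bacillus spike-in controls was 5.96 to 6.46 on T0 arrays, and then 4.15 to 6.32 (30 min), 5.30 to 6.08 (3 h) and 4.32 to 5.16 (12 h). The T0 and 12 h ranges did not overlap, so as a covariate this signal is hard to tell apart from the 12 h change.

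Nes was lower at every later time than at T0. In CA1 the 2 arrays read 8.71 and 8.70 at T0, 7.11 and 7.23 at 30 min, 7.01 and 7.28 at 3 h, and 6.69 and 6.71 at 12 h. In CA3 they read 7.49 and 8.10 at T0, 6.80 and 6.78 at 30 min, 6.91 and 6.47 at 3 h, and 6.52 and 6.11 at 12 h. All 12 later arrays were thus below all 4 T0 arrays, which was so for 0.901% of all probe sets, and the decline was already present at 30 min.

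Averaged over both regions, Nes fell by 1.27 ± 0.17 (log2, standard error) at 30 min, with an adjusted p of 0.0196 in limma over all probe sets. This leaves 0.415 of the T0 signal. It fell by 1.33 ± 0.17 at 3 h (limma, adjusted p = 0.0103), to 0.397 of the T0 signal. It fell by 1.74 ± 0.17 at 12 h (limma, adjusted p = 0.00196), to 0.299 of the T0 signal. Each later time was compared with the same 4 T0 arrays, so these changes are not independent of each other. By p, Nes ranked 10, 12 and 5 among the probe sets at 30 min, 3 h and 12 h.

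The Nes calls depended on how the arrays were counted. With each CA1 array averaged with the CA3 array that shares its time and number, 8 pair means remained, with fewer degrees of freedom. The sizes were the same, but the adjusted p of limma was 0.416 at 30 min, 0.28 at 3 h and 0.104 at 12 h. In that fit 0 of the 15866 probe sets passed at any of these times. The standard error of Nes was 0.16 there, against 0.17 with all arrays. With all arrays, the 30 min call was lost on leaving out any 1 of 9 arrays, namely both CA1 arrays of T0, of 30 min and of 12 h, both CA3 arrays of 30 min and replicate 2 of CA3 at T0, where the values ran from -1.30 to -1.12 with adjusted p from 0.0516 to 0.129. The 3 h call was lost without replicate 2 of CA1 at T0 (-1.34, limma adjusted p = 0.0688) or replicate 2 of CA3 at 3 h (-1.22, limma adjusted p = 0.0502). The 12 h call held without any single array, with values from -1.89 to -1.59, but not with the spike signal as a covariate (-1.70, limma adjusted p = 0.0676) or with replicate 2 of both regions left out at 30 min and 12 h (-1.64, limma adjusted p = 0.126).

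Within each region the same direction was seen with less support. In CA1, Nes was at -1.53 ± 0.23 at 30 min and -1.56 ± 0.23 at 3 h relative to T0 (limma adjusted p = 0.0646 and 0.0614), and fell by 2.01 ± 0.23 at 12 h (adjusted p = 0.014). That last call was lost on leaving out any 1 of the 4 CA1 arrays of T0 and 12 h, with an adjusted p from 0.0691 to 0.192. In CA3 the differences were -1.003 ± 0.23, -1.11 ± 0.23 and -1.48 ± 0.23 at 30 min, 3 h and 12 h, with adjusted p of 1.00, 0.544 and 0.082. The change in CA1 minus that in CA3 was -0.53 ± 0.33, -0.45 ± 0.33 and -0.53 ± 0.33 at these times (limma, adjusted p 1.00 each), so a difference between the regions in the size of the decline was not detected, with 95% intervals that reach from -1.26 to 0.28.

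**Figure D1:**
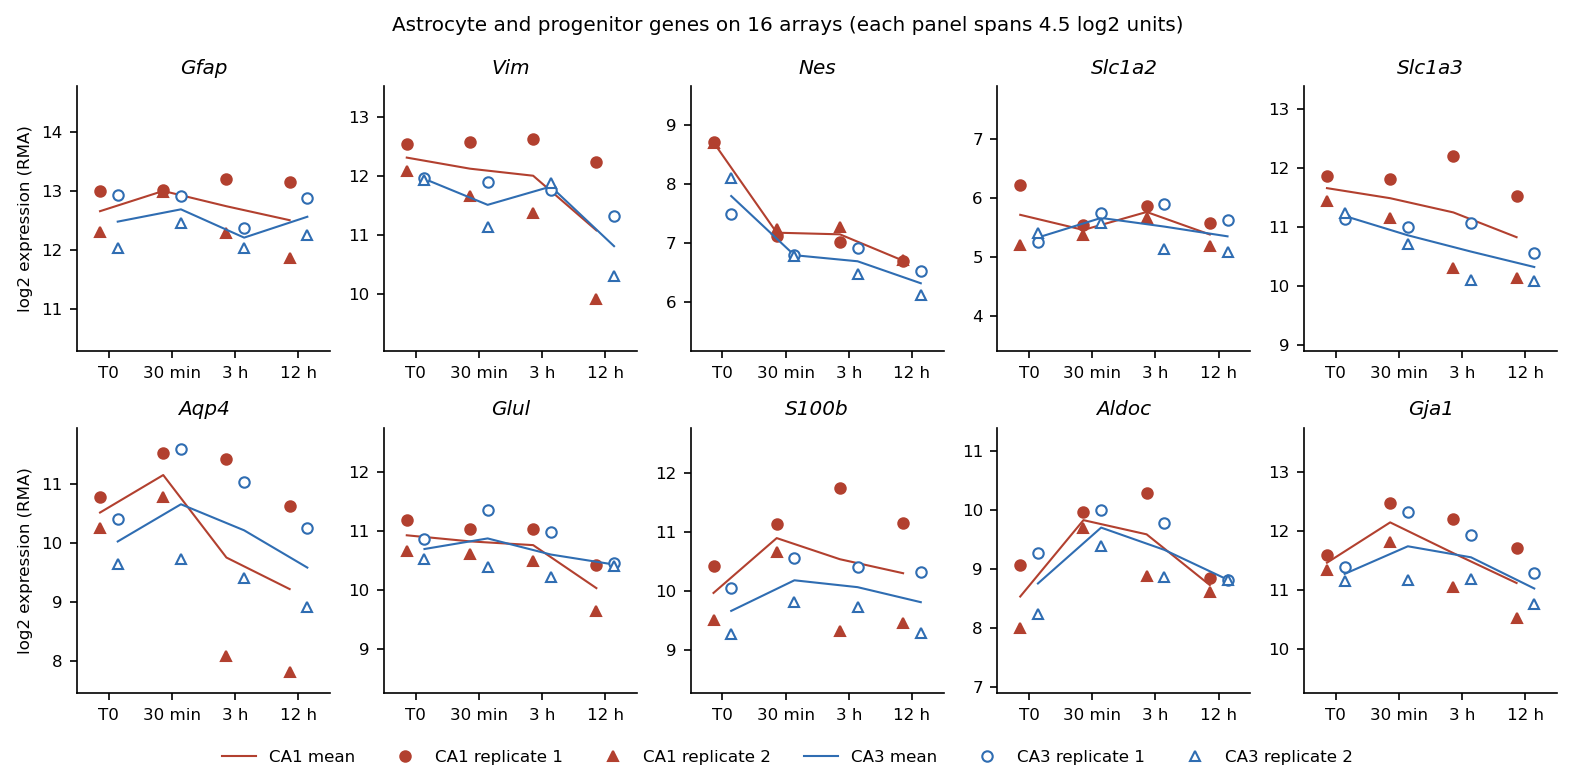
Log2 RMA values of the 10 genes on each of the 16 arrays, by time on the x axis, with regions and replicates marked apart, lines through the mean of the 2 arrays of a group, and panels of equal log2 span. Nes is the gene whose 12 later arrays all lie below its 4 T0 arrays, and Aqp4 spreads over the widest range, 7.81 to 11.59.

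Vim lay at 11.92 to 12.53 at T0, 11.12 to 12.58 at 30 min, 11.37 to 12.63 at 3 h and 9.91 to 12.23 at 12 h over both regions. The 12 h arrays were far apart, at 12.23 and 9.91 in CA1 and 11.32 and 10.29 in CA3, and overlapped T0 through replicate 1 of CA1. The difference at 12 h was -1.19 ± 0.49 and did not pass (limma, adjusted p = 0.226). With the GAPDH 3' minus 5' signal as a covariate it was -1.34 (limma, adjusted p = 0.0326), where 2014 of 15866 probe sets passed. Over the pair means the difference did not pass (limma, adjusted p = 0.535). Without replicate 2 of CA1 at 12 h it was -0.61.

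No time difference of Gfap passed. It averaged 12.58 ± 0.47 at T0, then 12.85 ± 0.26 at 30 min, 12.48 ± 0.50 at 3 h and 12.54 ± 0.59 at 12 h (SD, n = 4 arrays each). The differences from T0 were 0.28, -0.09 and -0.04, each ± 0.34, with a 95% interval of -0.79 to 0.72 at 12 h. This interval treats the arrays as independent, and over the pair means the standard error was 0.42.

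The transporter genes did not pass at any time. Slc1a3 averaged 11.42 ± 0.33 at T0, then 11.17 ± 0.47 at 30 min, 10.92 ± 0.95 at 3 h and 10.57 ± 0.67 at 12 h (SD, n = 4 each), and its 12 h difference was -0.85 ± 0.43 (limma, adjusted p = 0.333). The ranges of 12 h and T0 overlapped, because CA1 replicate 1 read 11.52 at 12 h. With the GAPDH 3' minus 5' signal as a covariate the 12 h difference was -1.01 and passed (limma, adjusted p = 0.0167). In that fit 2014 of 15866 probe sets passed. Over the pair means the 12 h difference of Slc1a3 did not pass (limma, adjusted p = 0.64). Slc1a2 stayed at 5.09 to 6.23 on all arrays, and its differences from T0 were between -0.16 and 0.12.

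Glul, the enzyme that makes glutamine from glutamate, was lowest at 12 h. Its arrays read 10.42 and 9.64 in CA1 and 10.46 and 10.40 in CA3 at 12 h, against 11.19 and 10.66 in CA1 and 10.86 and 10.53 in CA3 at T0. The 4 values at 12 h were all below the 4 at T0, which held for 8% of all probe sets. The difference of -0.58 ± 0.28 did not pass with all arrays as independent (limma, adjusted p = 0.309). It passed with the replicate number as a block (limma, adjusted p = 0.0442), a fit in which 8.21% of all probe sets passed. It also passed with the GAPDH 3' minus 5' covariate (-0.68, limma adjusted p = 0.0379), where 2014 of 15866 probe sets did. Over the pair means it did not pass (limma, adjusted p = 0.62), and there 0 of all probe sets did.

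Aldoc, the brain form of the glycolytic enzyme aldolase, was highest at 30 min. It read 9.96 and 9.70 in CA1 and 10.01 and 9.40 in CA3 at 30 min, against 9.07 and 7.996 in CA1 and 9.28 and 8.23 in CA3 at T0. All 4 arrays of 30 min lay above all 4 of T0, as for 1.89% of all probe sets. The difference was 1.12 ± 0.37 at 30 min, 0.81 ± 0.37 at 3 h and 0.13 ± 0.37 at 12 h, of which none passed (limma, adjusted p = 0.441, 0.557 and 0.935).

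S100b, a calcium-binding protein of astrocytes, averaged 9.82 ± 0.52 at T0, then 10.54 ± 0.55 at 30 min, 10.30 ± 1.06 at 3 h and 10.06 ± 0.86 at 12 h (SD, n = 4 each). Its differences from T0 were 0.72, 0.49 and 0.24, each ± 0.55. None passed, and the ranges of all times overlapped T0.

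Of the channel genes, Gja1 averaged 11.37 ± 0.18 at T0, then 11.94 ± 0.59 at 30 min, 11.59 ± 0.57 at 3 h and 11.07 ± 0.54 at 12 h (SD, n = 4 each). Its differences were 0.58, 0.22 and -0.30, each ± 0.37, and did not pass. Aqp4 averaged 10.27 ± 0.48 at T0, then 10.91 ± 0.87 at 30 min, 9.99 ± 1.54 at 3 h and 9.40 ± 1.29 at 12 h, with differences of 0.63, -0.29 and -0.87, each ± 0.83. The large error of Aqp4 came from arrays of the same group, such as 11.42 and 8.09 in CA1 at 3 h and 10.63 and 7.81 in CA1 at 12 h.

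**Figure D2:**
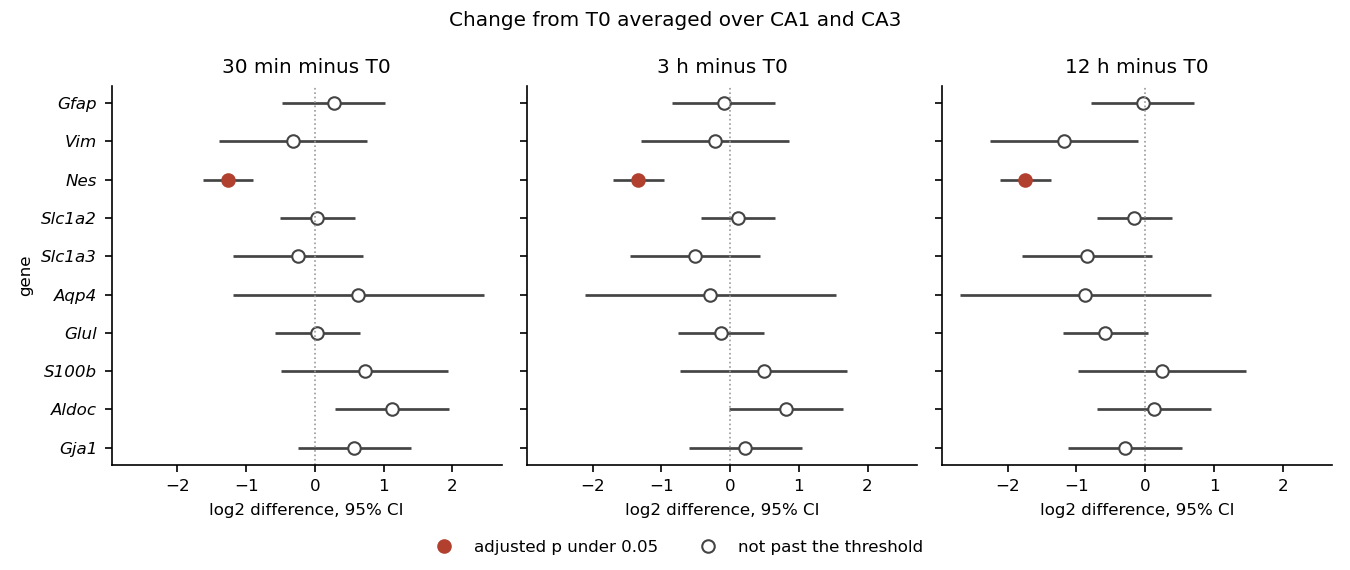
Log2 difference from T0 over both regions at 30 min, 3 h and 12 h for each gene, with bars for the 95% interval of the limma fit of all arrays and filled points for adjusted p under 0.05. Nes is the only one of the 10 genes whose adjusted p passed in this fit, at -1.27, -1.33 and -1.74, and it did not pass over the pair means.

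Across the set, 1 of 10 genes passed at each later time in the fit of all arrays, and it was Nes each time, all in the lower direction. Over the pair means 0 of 10 passed at these times, where 0 of all probe sets did. The genes were chosen with earlier results of these data known, so these counts are not a test of the set. The background of lower calls among all probe sets was 0.101% at 30 min, 0.158% at 3 h and 1.23% at 12 h. In CA1 alone 1 of 10 passed at 12 h, again Nes, against 0.208% of all probe sets in either direction, and 0 of 10 passed at 30 min and 3 h, where 0.0126% and 0.0063% did. In CA3 alone 0 of 10 passed at any time, against 0%, 0% and 0.0063% of all probe sets at 30 min, 3 h and 12 h, and 1 of 10 had an unadjusted p under 0.05 at each of these times. The median difference of the 10 genes was 0.16 at 30 min, -0.11 at 3 h and -0.44 at 12 h, beside -0.00, 0.05 and -0.02 for all probe sets. At 12 h, 8 of 10 genes were below 0 and 2 above, where 45.5% of all probe sets were above 0. Read by overlap, 1 of 10 genes lay below T0 on all arrays at 30 min and at 3 h (Nes) and 2 at 12 h (Nes and Glul), against 3.66%, 3.69% and 8% of all probe sets. Above T0 there was 1 at 30 min (Aldoc) and 0 at 3 h and 12 h, against 1.89%, 3.01% and 7.55%.

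CA1 was above CA3 in all 8 pairs of arrays of the same time and number for Nes and Slc1a3, and 7 of 8 for Gfap and S100b. The background was 1.26% of all probe sets for all 8 pairs and 5.92% for at least 7. The other genes were higher in CA1 in 3 to 6 of 8 pairs. In the fit of all arrays, 0 of 10 genes passed for CA1 against CA3, where 0 of all probe sets did and 510 had an unadjusted p under 0.05, among them 1 of the 10 genes, Nes.

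For Nes the mean CA1 minus CA3 difference was 0.53 ± 0.12, with single pairs from 0.11 to 1.22 (limma, adjusted p = 0.817). For Slc1a3 it was 0.57 ± 0.30, with pairs from 0.05 to 1.14. S100b differed by 0.50 ± 0.39, Gfap by 0.24 ± 0.24 and Vim by 0.36 ± 0.34. Leaving out 1 array at a time moved these to between 0.19 and 0.80 for S100b, 0.08 and 0.40 for Gfap, 0.07 and 0.65 for Vim, 0.33 and 0.81 for Slc1a3 and 0.46 and 0.61 for Nes, with the lowest values without replicate 1 of CA1 at 3 h (S100b and Slc1a3) or at 12 h (Gfap and Vim) and the highest without replicate 2 of the same groups. Glul was at -0.01, Aldoc at 0.02, Aqp4 at 0.04 and Slc1a2 at 0.12, and each of these 4 took either sign on leaving out single arrays. The set's median was 0.22 beside -0.01 for all probe sets.

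Since paired arrays deviated together, the 8 CA1 minus CA3 differences were also fitted on their own. The standard error was then 0.15 for Slc1a3, 0.12 for Gfap and 0.12 for Nes. Still 0 of 10 genes passed, where 0.208% of all probe sets did. The adjusted p in limma was 0.138 for Nes, 0.19 for Slc1a3, 0.335 for S100b and 0.54 for Gfap.

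At T0, where Nes was highest, it read 8.71 and 8.70 in CA1 against 7.49 and 8.10 in CA3. The difference of 0.91 ± 0.23 did not pass (limma, adjusted p = 1.00 with all arrays and 0.898 for the pairs). At 30 min, 3 h and 12 h it was 0.38, 0.46 and 0.38, each ± 0.23.

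**Figure D3:**
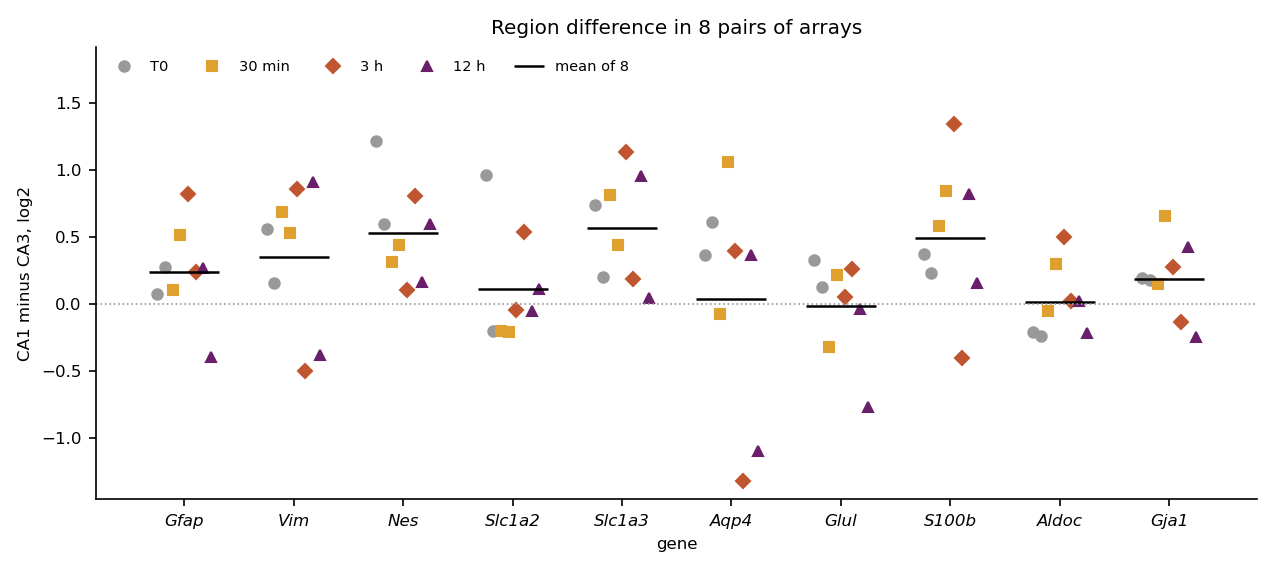
CA1 minus CA3 on the log2 scale for each of the 8 pairs of arrays of the same time and number, by gene, with the mean as a line. All 8 points of Nes and Slc1a3 lie above 0, with means of 0.53 and 0.57.

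The replicate number moved most of these genes. Replicate 1 was above replicate 2 in all 8 groups for 5 genes (Gfap, Aqp4, Glul, S100b and Gja1) and in 7 of 8 for Vim, Slc1a2, Slc1a3 and Aldoc, while Nes was split 4 to 4. Among all probe sets, 5.24% were higher in replicate 1 in all 8 groups and 13.4% in at least 7. The mean gap was 1.63 log2 units for Aqp4, with a range of 0.53 to 3.34, 1.09 for S100b, 0.83 for Vim, 0.75 for Slc1a3, 0.74 for Gja1, 0.69 for Aldoc, 0.66 for Gfap, 0.55 for Glul and 0.38 for Slc1a2. For Nes it was -0.02. The mean gap was larger than the size of the 12 h difference for 6 of the 9 genes other than Nes.

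Some other lists moved with the number as well, and some did not. The mean gap was 0.05 for neural progenitor genes, -0.07 for oligodendrocyte precursor markers and 0.02 for endothelial and mural markers. The mean of 23 further astrocyte genes was higher in replicate 1 in 8 of 8 groups, by 0.57 on average, and that of 11 microglia markers in 7 of 8, by 0.58. The mean of 8 inhibitory neuron markers was higher in replicate 1 in 1 of 8 groups, with a mean gap of -0.58, and that of 10 excitatory neuron markers in 3 of 8, with gaps from -2.04 to 1.35. Replicate 2 also had the higher GAPDH 3' minus 5' value in every one of the 8 groups and the lower spike signal in 6 of 8. What a number marks is not stated in the labels, and the part of these measures in the gap was not tested.

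**Figure D4:**
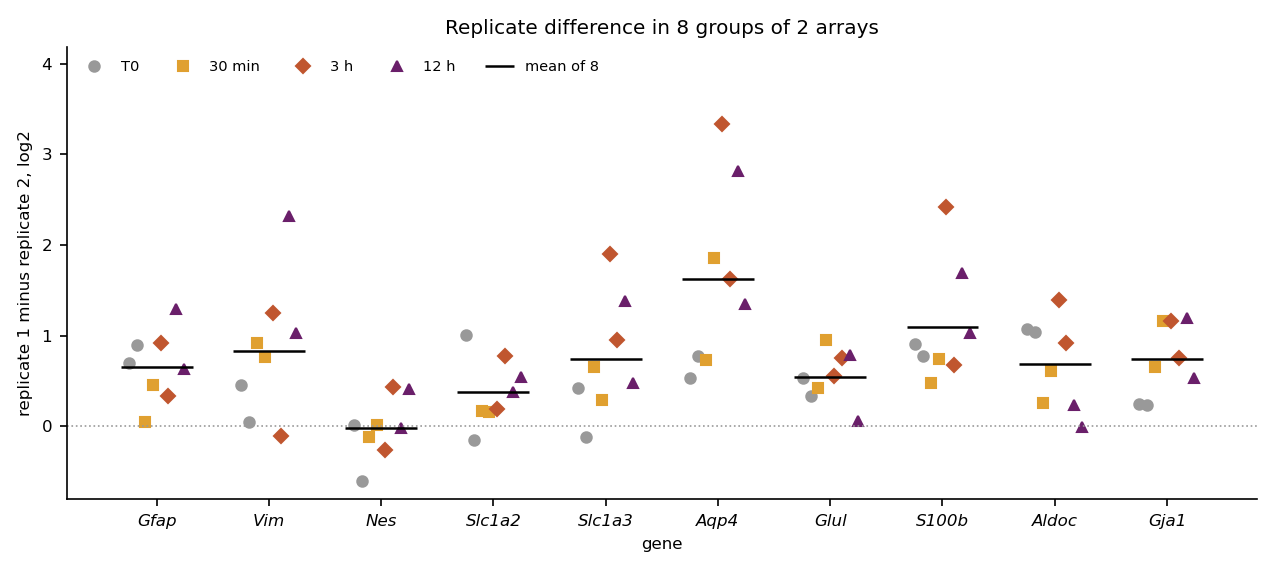
Replicate 1 minus replicate 2 on the log2 scale in each of the 8 groups, by gene. Aqp4 reaches 3.34, and Nes, with 4 groups above 0 and 4 below, centres near 0.

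The other probe sets of the 10 genes add little. There are 9, for 5 of the genes, and 6 of them have means below 5.92, the median of all probe sets. Vim, Gfap, Nes, S100b and Aldoc have 1 probe set each, so the Nes result rests on 1. For Slc1a3, a dimmer second probe set was also higher in CA1 in 8 of 8 pairs, by 0.38 ± 0.22, whereas the third was so in 3 of 8. For Glul, the second gave -0.64 ± 0.43 at 12 h and overlapped T0.

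For Aqp4 the second probe set, with a mean of 7.32, read 8.81 and 8.61 in CA1 and 8.15 and 7.27 in CA3 at 30 min, against 7.03 and 7.09 in CA1 and 7.03 and 6.46 in CA3 at T0. These 4 arrays lay above all 4 of T0, with a difference of 1.31 ± 0.52 that did not pass (limma, adjusted p = 0.578), while the ranges of the brighter probe set overlapped. The third, with a mean of 4.33, was above T0 at all 3 later times by 0.22, 0.43 and 0.14, at a level where little signal is measured.

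Other genes of the same pathways and cell states were read from 15 lists, of which 173 of 208 genes were measured. Over both regions, 0.107%, 0.183% and 2.07% of all probe sets passed in either direction at 30 min, 3 h and 12 h. Of the 23 further astrocyte genes, such as Mlc1, Ndrg2 and Ntsr2, 0 passed at any time or between regions, and their median differences were 0.33, 0.15 and -0.04 at 30 min, 3 h and 12 h. Of 23 reactive astrocyte genes, 0 passed at any time, with medians of -0.28, -0.16 and -0.62. The largest by moderated t at 12 h were Cp (-2.97 ± 0.85), which encodes ceruloplasmin, and the hyaluronan receptor gene Cd44 (-1.31 ± 0.41), with limma adjusted p of 0.102 and 0.125.

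Between regions, 20 of the 23 reactive genes were higher in CA1, with a median of 0.42, whereas 47.6% of all probe sets were. Only Aspg passed, in the fit of paired differences (0.90 ± 0.13, limma adjusted p = 0.0433), and 0 passed with all arrays. In that paired fit the neurofilament gene Nefl was lower in CA1 (-1.42 ± 0.22, adjusted p = 0.0478). The oligodendrocyte markers Mag (-1.14 ± 0.11), Mbp (-1.12 ± 0.15) and Cldn11 (-0.95 ± 0.14) were lower there as well, 3 of 8 measured, with adjusted p of 0.0113, 0.0433 and 0.0464. Glutamate transporter Slc1a1, the neuronal form, was at -0.57 ± 0.09 and did not pass (adjusted p = 0.0585).

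Among 14 neural progenitor genes, 1 passed. Prom1, which encodes the stem cell surface protein prominin-1, fell by 1.03 ± 0.17 at 12 h (limma, adjusted p = 0.0178). This call was lost over the pair means (limma, adjusted p = 0.241), where 0 of all probe sets passed. The list's medians were -0.15, 0.05 and -0.43 at 30 min, 3 h and 12 h, with 4, 8 and 3 of the 14 above 0. Of all probe sets, 49.6%, 58.4% and 45.5% were above 0 at these times. Sox4, a transcription factor gene of the list, was at 0.93 ± 0.27 at 3 h and 0.83 ± 0.27 at 12 h and did not pass (adjusted p = 0.299 and 0.136). Among 14 other intermediate filament genes, the nuclear lamin gene Lmnb1 fell by 1.55 ± 0.23 at 12 h (adjusted p = 0.0121) and the neuronal filament gene Ina rose by 1.32 ± 0.29 (adjusted p = 0.0469). Among 10 S100 genes, S100a11 fell by 1.57 ± 0.20 at 3 h and 1.72 ± 0.20 at 12 h (adjusted p = 0.012 and 0.0039). Of the 15 genes of glutamate and glutamine handling, 1 passed, the vesicular transporter gene Slc17a6, which rose by 2.14 ± 0.41 at 12 h (adjusted p = 0.0317). Of 13 aquaporin anchoring and gap junction genes, 0 passed.

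Dividing cell markers, a list chosen with earlier results of these data known, moved alongside Nes. All 10 measured were below 0 at each later time, when 49.6%, 58.4% and 45.5% of all probe sets were above 0. The medians of these markers were -1.08, -1.30 and -1.70 at 30 min, 3 h and 12 h. At 30 min 3 passed, Mki67 (-2.09 ± 0.26), Kif15 (-1.78 ± 0.26) and Mcm3 (-1.16 ± 0.15), with limma adjusted p of 0.0196, 0.0407 and 0.0196. At 3 h 4 passed, these and Top2a. At 12 h 8 did, led by Mki67 (-2.78 ± 0.26) and Kif15 (-2.68 ± 0.26), with Top2a, Mcm3, Ccnb1, Ccnb2, Cdk1 and Birc5. The list's mean level was 7.03 to 7.63 at T0, 5.87 to 6.72 at 30 min, 5.73 to 6.29 at 3 h and 5.37 to 5.81 at 12 h, and 5 of the 10 had means below the median of all probe sets. Its part in the Nes change was not tested.

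Markers of other cell types also changed at 12 h. Of 11 microglia markers 4 fell, Ptprc, C1qa, C1qc and Lyz2, by 2.00 to 2.48 log2 units, and the list's mean was 6.30 to 7.59 at 12 h, against 8.15 to 8.64 at T0. Of 10 excitatory neuron markers 3 rose, Slc17a6, Tubb3 (1.56 ± 0.29) and Stmn2 (2.68 ± 0.58), and the list's mean was 8.27 to 8.66 at 12 h, against 5.74 to 7.83 at T0. The fibronectin gene Fn1, 1 of 9 fibroblast and meningeal markers, fell by 2.54 ± 0.43. Of the inhibitory neuron, oligodendrocyte, oligodendrocyte precursor and endothelial markers, 0 passed at any time, and 9 of 10 endothelial and mural markers lay below the median of all probe sets. Their part in the differences of the 10 genes was not tested. Over the pair means, 0 of these listed genes passed at any time, and 0 of all probe sets did.

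**Figure D5:**
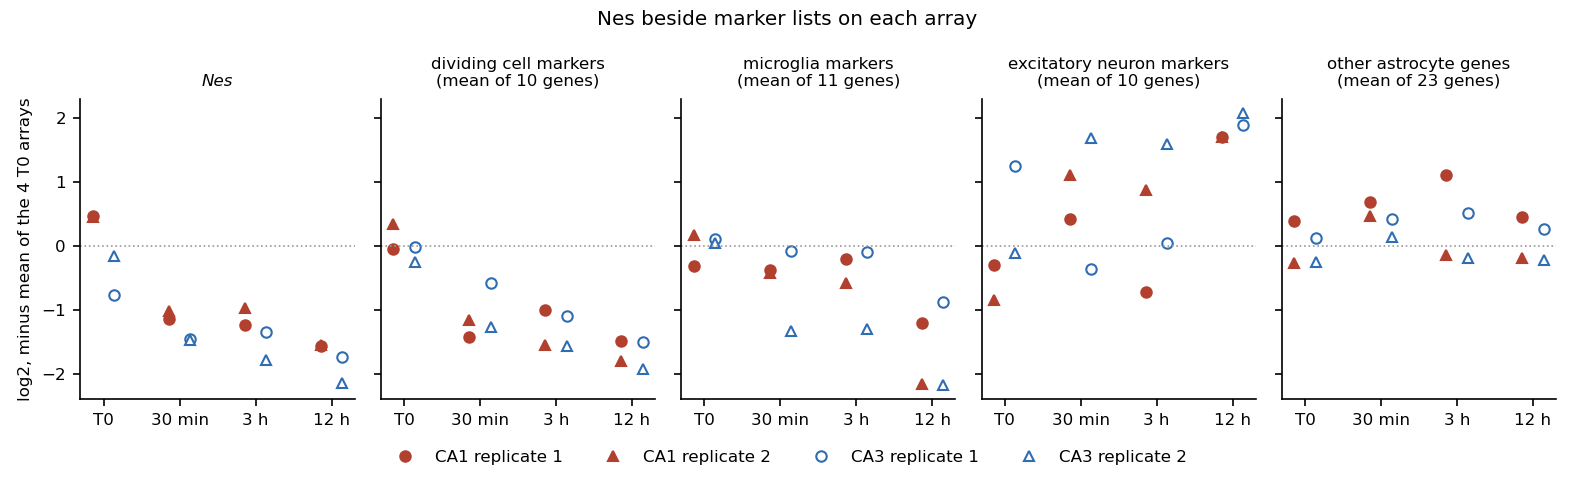
Nes and the mean of the dividing cell, microglia, excitatory neuron and further astrocyte lists on each array, as log2 values minus the mean of the 4 T0 arrays, by time, with regions and replicates marked apart. Nes and the dividing cell mean are lower on all 12 later arrays than at T0, with the dividing cell mean at 5.37 to 6.72 against 7.03 to 7.63.

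The genes whose course over the 16 arrays was most like that of Nes were Tacc3, S100a11 and Dscc1, by the root mean square difference after each gene's own mean was taken off (0.28, 0.28 and 0.30 log2 units, among 10410 genes). Tacc3, a protein of the mitotic spindle, was at -1.92 at 12 h relative to T0, and Dscc1, a protein of sister chromatid cohesion, at -1.54, values that follow from their choice by likeness to Nes. The closest to Gfap were Itm2b, Nme7 and Apoe (0.18, 0.19 and 0.20), and the closest to Vim were Fuca1, Pros1 and Sgcb (0.30, 0.31 and 0.34). Those closest to Slc1a2 were Lcnl, P2rx7 and Cmklr1 (0.19 to 0.20), which says little at its low level. Within the set the closest pair was Glul and Gja1 (0.31) and the farthest Nes and Aqp4 (1.22), and these distances describe arrays that share their replicate number.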

How the data were processed

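RNA from CA1 and CA3 at 4 times was measured on 16 Affymetrix arrays, 2 for each of 8 groups. The deposited table holds log2 values per probe set that the authors made by RMA, as the submitters' processing notes name it, and RNA was labelled with biotin in a method that amplifies it, per the labels' protocols. RMA equalises the distributions of the arrays, so each value is relative to the other genes. After 57 control probe sets among the 15923 of the table were set aside, 15866 were tested with limma 3.58.1 in R 4.3.3 on 8 group means of all arrays, with 8 residual degrees of freedom, and p-values were adjusted by Benjamini-Hochberg over all probe sets of a contrast, with a threshold of 0.05. Errors after ± are moderated standard errors unless called SD. Gene names come from the platform annotation, which gave 1 gene for 12783 probe sets, several for 312 and none for 2771, and all 10 genes matched RefSeq symbols of GRCr8.

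All 10 genes are named. From each list, genes past the threshold are named, or else those largest by moderated t, and the 3 genes most like Nes, Gfap, Vim and Slc1a2 by root mean square difference. The genes and lists were chosen with earlier results of these data known. Pairing by replicate number was checked: array deviations around their group mean correlated at 0.568 to 0.668 between a CA1 and a CA3 array that share time and number, and at -0.236 to 0.308 between T0 and later times, where 5 of 12 were under 0.1. Between later times they were 0.296 to 0.657, with 0 of 12 under 0.1. The numbers were thus taken to pair regions within a time. The later times share an effect of the number as well, but T0, which every time contrast uses, was not taken as paired with them. The fits were tested on simulated data in which all arrays were independent. That test does not show how the fit of all arrays behaves when paired arrays deviate together. The labels call the replicates biological but do not say whether they came from separate animals. The p-values thus measure only the spread between these samples, part of which may be technical. The number of arrays limits the precision.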

Additional observations from a re-analysis of the deposited data

How the results depend on the processing

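Other settings tried were the replicate number as a block, the pair fit, cyclic loess, leaving out dim probe sets, the mean over probe sets of a gene, the GAPDH 3' minus 5' or the spike signal as a covariate, and leaving out the replicate 2 arrays of 30 min and 12 h or of 3 h. Over these, 0 of the differences of the 10 genes that passed in either fit changed sign. Differences that passed in neither fit changed sign 33 times over these settings. The count of genes past the threshold at 12 h over both regions was 2 with the replicate block (Nes and Glul), 4 with the GAPDH covariate (Nes, Vim, Slc1a3 and Glul), and 0 over the pair means, with the spike covariate and when replicate 2 of 30 min and of 12 h was left out, against 1 with all arrays. At 30 min it was 0 over the pair means, without dim probe sets, with the spike covariate and without either set of replicate 2 arrays, and at 3 h it was 0 over the pair means and without either set. In CA1 at 12 h it was 0 with the spike covariate and when those same replicate 2 arrays were left out, and in CA3 at 12 h it was 1 with the GAPDH covariate. The replicate block changed no other count. Over both regions at 12 h, 1302 of 15866 probe sets passed with the replicate block and 2014 with the GAPDH covariate. Only 4 passed with the spike covariate, whose 12 h values did not overlap those of T0, and 0 over the pair means, against 328 with all arrays. At 30 min 3 passed without dim probe sets, 2 with the spike covariate and 0 over the pair means, against 17 with all arrays. Leaving out 1 array at a time gave 0 to 1 at 30 min, 0 to 1 at 3 h, 0 to 1 in CA1 at 12 h and 1 throughout over both regions at 12 h. The causes of these differences were not tested. Over the 9 settings the difference of Nes ran from -1.29 to -1.24 at 30 min, -1.33 to -1.28 at 3 h and -1.76 to -1.64 at 12 h, and it passed in 4, 6 and 6 of them. Slc1a2 and the dim probe sets are limited by signal near the bottom of the range.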
